A study of Drosophila melanogaster and Drosophila simulans and Drosophila yakuba with 4 samples.

Results

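The right arm of the X chromosome of Drosophila pseudoobscura, XR, carried 2935 of the 15145 genes (19.4%) whose expression was listed for white prepupae of this species. A gene was counted as an XR gene when the sequence name of its locus began with chrXR, a rule that uses position alone and no expression value. The 2935 genes fell on 4 stretches of assembled sequence, called scaffold groups, with 1518 genes on chrXR_group6, 1153 on chrXR_group8, 181 on chrXR_group3a and 83 on chrXR_group5. RNA-seq was performed on total RNA of whole D. pseudoobscura animals collected as white prepupae, when the larva has just formed its still pale puparium, with no treatment. The series holds libraries of 3 further species at the same stage, and its purpose was to set gene expression beside the histone mark H3K27me3, which was not analysed here. Strain and sex of the animals are not given in the labels, and the methods say only that strains were kept at room temperature. 1 library per species was analysed, so there is no replicate spread, no test and no p-value for any value below, and genes of 1 library are not replicates.

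In the genus Drosophila the gene content of each chromosome arm has largely been kept between species, and the arms are called Muller elements. XR corresponds to Muller element D, an ordinary autosome arm named 3L in D. melanogaster, D. simulans and D. yakuba, which became part of the X when it was joined to the ancestral X arm in the lineage of D. pseudoobscura. XL is that older arm, Muller element A, and chr2, chr3 and chr4 are autosomes (elements E, C and B). Males carry a single X, and in flies the male-specific lethal complex raises transcription from the X in males, a process called dosage compensation that in D. pseudoobscura also acts on XR. The identity of XR could not be checked with marker genes, since none of its 2935 identifiers was found in the gene name table used here. For the same reason gene roles are not given, most genes are named by position, and no tissue marker could be looked up.

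Levels are in FPKM, a count of sequenced fragments scaled to the length of the transcript and to the size of the library, and each gene has a lower and an upper bound. From the width of these bounds the number of reads behind a value can be worked back (implied reads). This gave whole numbers within 0.05 reads for 99.7% of the 1529 XR genes with fewer than 300 such reads. The library came to 13159257 implied reads, of which 3204031 lay on XR. This total covers the 15142 of 15146 listed rows with status OK, which include all XR rows. Reads of the other rows are not known. XR genes at FPKM 1 or more had a median of 293.5 implied reads, and the upper bound of the middle gene was 11.7% above its FPKM. These bounds and all intervals below cover counting error only.

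XR genes were detected nearly as often as genes elsewhere in the library. Their median level was lower than that of each autosome and higher than that of XL. At FPKM 1 or more, the level used here to call a gene detected, stood 2278 of 2935 XR genes (77.6%), against 78.5% of all genes of the library. The share was 77.3% on XL, 78.7% on chr2, 78.8% on chr3 and 80.0% on chr4. XR was thus close to the older X arm and below each autosome, and the autosomes also differed among themselves. For 330 XR genes the bounds spanned FPKM 1, of which 206 were counted as detected and 124 were not. A further limit is that 45 detected XR genes rested on 3 implied reads or fewer, with a median locus length of 219 bp. Without them the share was 76.1% on XR, 75.8% on XL and 78.0% on the autosomes.

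Most XR genes were expressed at low to moderate levels. Of the 2935 genes, 283 were listed at FPKM 0, 58 were above 0 and under 0.1, and 316 were from 0.1 to under 1. From 1 to under 10 stood 901 genes, from 10 to under 100 stood 1145, from 100 to under 1000 stood 201, and at 1000 or more stood 31. At 100 or more stood 232 XR genes in all (7.90%), against 8.6% of all genes of the library, 7.04% on XL and 9.25% on the autosomes. The lower quartile of the XR levels was 1.29, the median 8.46, the upper quartile 26.3, the 90th percentile 77.1 and the 99th percentile 1046. On the autosomes together the lower quartile was 1.70, the median 10.6, the upper quartile 31.7 and the 90th percentile 91.7. The class from 10 to under 100 held 39.0% of XR genes and 42.0% of autosomal genes, and the class from 1 to under 10 held 30.7% and 27.9%. In the plot of cumulative levels the XR curve runs above those of the autosomes through this range and comes close to them at both ends.

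**Figure D1:**
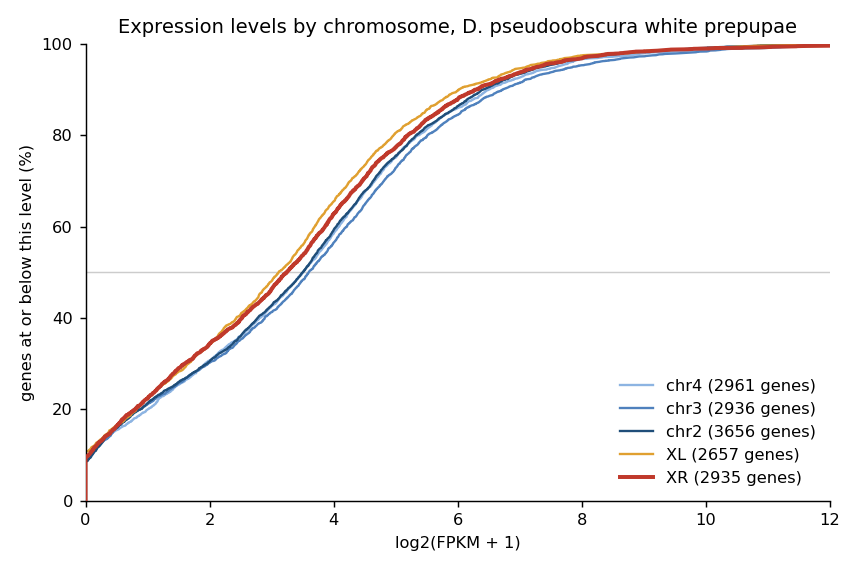
Cumulative share of genes (y axis, %) at or below each level (x axis, log2 of FPKM + 1) in the D. pseudoobscura library. There is 1 line per X arm or autosome, and the line at 50% marks the medians. The XR line crosses 50% between XL (median FPKM 7.66) and the 3 autosomes (10.3 to 11.1), at a median of 8.46.

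The median level of XR genes was 0.80 times that of the autosomes. Against the autosomes one by one it was 0.82 times chr2, 0.76 times chr3 and 0.82 times chr4. The median of XL, at 7.66, was 0.72 times that of the autosomes, so that the newer arm was 1.10 times the older one. The 3 autosomes had medians of 10.3, 11.1 and 10.4, and the median of each was between 0.96 and 1.07 times that of the other autosomes. XR and XL both lay outside this range, which is the only spread between chromosomes that 1 library offers. Over detected genes alone the XR median was 14.1 and the ratio to the autosomes rose to 0.86, with 0.76 for XL. At the upper quartile XR stood at 0.83 and at the 90th percentile at 0.84 times the autosomes, while XL stood at 0.73 and 0.69. The spread of levels among detected XR genes was not narrower than elsewhere, with an interquartile range of 2.81 on the log2 scale against 2.72 on the autosomes and 2.64 on XL. Since the sexes of the animals are not given, a level per X copy could not be worked out, and in whole animals fewer cells of a type and less RNA per cell cannot be told apart.

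The 4 scaffold groups of XR differed in level. The median was 7.80 on chrXR_group8, 8.58 on chrXR_group6, 10.5 on chrXR_group3a and 12.9 on chrXR_group5, which are 0.74, 0.81, 0.99 and 1.21 times the autosome median. Both large groups thus lay below every autosome, and both small groups lay among or above them. Over detected genes the order was the same but the range was narrower, from 13.6 on chrXR_group8 to 16.1 on chrXR_group5. The detected share ran from 76.7% on chrXR_group8 to 80.7% on chrXR_group5. Scaffold groups of chr4 also differed, with medians from 6.69 on chr4_group5 (233 genes) to 17.3 on chr4_group2 (120 genes), a wider range than among the groups of XR. Those of XL ran from 4.67 on chrXL_group3a (273 genes) to 14.8 on chrXL_group3b (38 genes). Of the large XL groups, chrXL_group1a (985 genes) stood at 8.78, above both large XR groups, and chrXL_group1e (1361 genes) at 7.61, below both. Leaving out chrXR_group8 moved the ratio of XR to the autosomes from 0.80 to 0.85, and leaving out any other group gave 0.78.

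**Figure D2:**
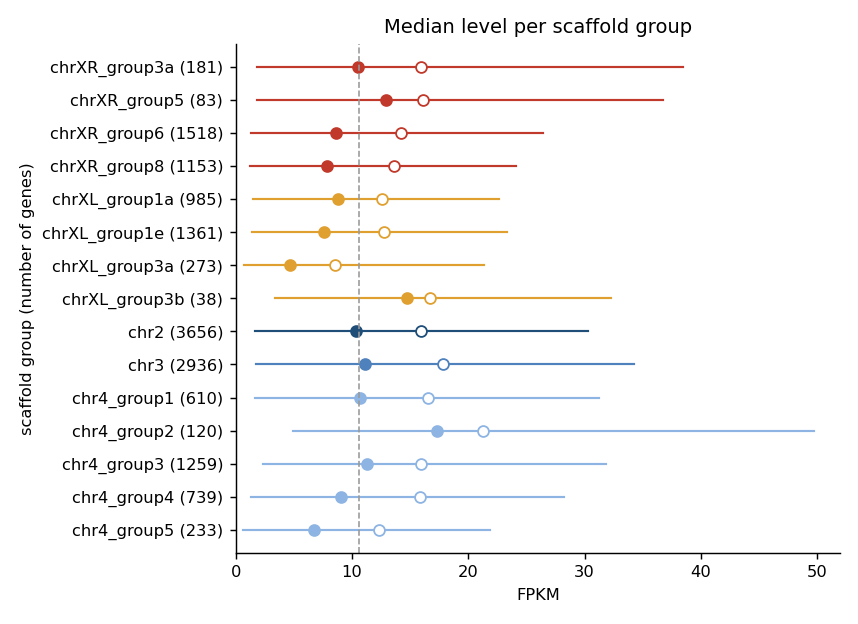
Median FPKM (x axis) of each scaffold group or chromosome (y axis, with the number of genes), over all genes (filled points) and over genes at FPKM 1 or more (open points), with lines from the lower to the upper quartile over all genes and a dashed line at the autosome median of 10.6. The groups chrXR_group6 and chrXR_group8, which hold most XR genes, have filled points at 8.58 and 7.80, left of the dashed line.

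The lower level of XR was seen in each class of locus length, and it was largest among the shortest loci. XR loci had a median length of 1412 bp, against 1424 bp on the autosomes and 1439 bp on XL. Genes were sorted into 4 classes by the quartiles of XR locus length. In the shortest class, up to 686.5 bp, the XR median was 3.83, or 0.48 times the autosome median of 7.94 in the same class. In this class 62.3% of XR genes and 64.7% of autosomal genes were detected, and over detected genes the ratio was 0.75. In the next classes the ratio over all genes was 0.94, 0.81 and 0.83, and over detected genes 0.85, 0.90 and 0.86. XL lay below the autosomes in each class as well, at 0.78, 0.73, 0.82 and 0.69 times from the shortest class to the longest. XR was not above XL in every class. In the shortest its median was 3.83 against 6.20 on XL, and in the third 7.94 against 7.99. Over detected genes XR was above XL in each class. With the autosomal genes weighted to the length deciles of XR, the XR median was 0.79 times theirs, close to the unweighted value. Locus length includes introns, and the length of the mature transcript is not listed in the file.

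Silent genes were about as frequent on XR as in the library as a whole, and most had short loci. At FPKM 0 stood 283 XR genes (9.64%), against 9.47% of all genes of the library, 10.8% on XL, 8.62% on chr2, 9.20% on chr3 and 9.46% on chr4. A count of 0 allows up to 3 reads. The 52 XR genes with exactly 3 implied reads had a median FPKM of 0.71 and ran from 0.034 to 121.7, depending on their length, so a gene at 0 need not be far below the detection level. The loci of silent genes were short, with a median of 423 bp against 1533 bp for detected XR genes. Of the silent genes 107 (37.8%) had loci under 300 bp, compared with 95 of the 2278 detected genes (4.17%). On the autosomes the pattern was alike, with medians of 330 and 1575 bp. Only 61 silent XR genes had loci of 1000 bp or longer. The longest of them, FBgn0249617 at chrXR_group8:6709671-6851166, spanned 141496 bp with no implied read, and FBgn0245185 at chrXR_group6:6251550-6340161 spanned 88612 bp with none. The first of these loci overlaps another listed locus. The second overlaps none.

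**Figure D3:**
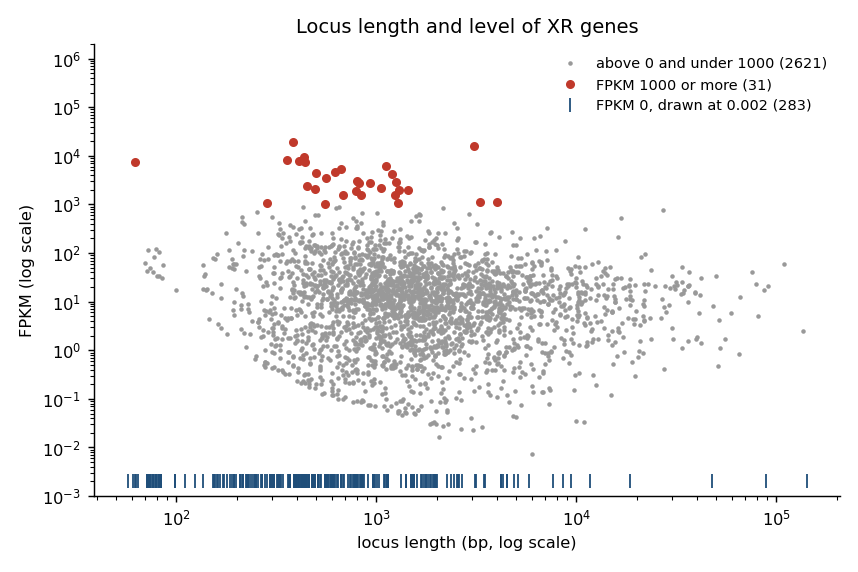
Locus length (x axis, bp, log scale) and FPKM (y axis, log scale) of the 2935 XR genes, with the 31 genes at FPKM 1000 or more in red and the 283 genes at FPKM 0 as blue ticks at the bottom. Silent loci crowd at short lengths (median 423 bp), the very high genes have a median locus of 792 bp, and below 300 bp points above 0 start at higher FPKM because 1 read is worth more in a short transcript.

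Silent XR genes often lay side by side. They formed 193 runs of neighbouring silent genes, of which 133 were single genes and 16 held 3 genes or more, and 150 of the 283 (53.0%) had a silent neighbour. The same share was 47.9% on XL, 54.9% on chr2, 58.9% on chr3 and 53.6% on chr4. The longest silent runs of XR held 6 genes each, both on chrXR_group8. The 6 loci between 5953857 and 5963492 were all 84 bp long, and the 6 between 7865733 and 7867079 were 75 to 79 bp long. Whether these loci are copies of one another was not examined, and how reads that map to several places were counted is not stated, so the zeros of both runs are uncertain. A run of 5 silent genes at chrXR_group8:908663-918492 had longer loci, with a median of 423 bp, and lay a few genes beyond the highest gene of that group. On the autosomes the longest silent runs were 11 genes on chr2, 30 on chr3 and 13 on chr4, and XL had one of 8, all longer than any on XR.

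Very high genes were about as frequent on XR as in the whole library. They held 49.7% of the XR reads, and 1 of them alone held 27.8%. The read share of very high genes was not worked out for XL or the autosomes. More very high genes lay side by side on XR than on XL or any autosome. At FPKM 1000 or more stood 31 XR genes (1.06%), against 1.17% of all genes of the library, 27 genes on XL, 32 on chr2, 49 on chr3 and 38 on chr4. They lay on chrXR_group6 (19 genes), chrXR_group8 (8) and chrXR_group3a (4), with none on chrXR_group5, whose highest gene, at chrXR_group5:519791-520003, reached 436.2. The bounds of 29 of the 31 lay wholly above 1000, and those of the other 2, at 1062.8 and 1013.5, reached below it. Of the 31 genes, 11 (35.5%) were directly next to another very high gene, compared with 2 of 27 on XL, 2 of 32 on chr2, 8 of 49 on chr3 and 2 of 38 on chr4. The XR count includes a pair at chrXR_group6:7814652-7816044, of which 1 gene has a locus of only 62 bp and 95 implied reads. These counts are small, and the difference was not tested.

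The highest XR gene by FPKM was FBgn0244891, at chrXR_group6:6918158-6918541, with a level of 19486 (bounds 19303 and 19669) from 45453 implied reads. Its rank among all 15145 genes of the library was 4. It was the middle one of 3 neighbouring very high genes. The gene before it, at chrXR_group6:6916091-6917203, had an FPKM of 6273 and 114489 implied reads, and the gene after it, at chrXR_group6:6919720-6920913, had 4172 and 77573. The loci were 954 and 1178 bp apart. The genes flanking this trio fell to 18.0 on one side and 17.1 on the other, so the high level did not extend beyond it.

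By implied reads a single gene dominated the arm. FBgn0074469, at chrXR_group6:4764078-4767168, had an FPKM of 15671 (bounds 15638 and 15705) and 891238 implied reads, which was 6.77% of the library (95% Wilson interval 6.76 to 6.79) and 27.8% of all XR reads (27.8 to 27.9). Its flanking genes stood at 204.5 and 2.44. FPKM and bounds are listed as rounded values, so an implied count this high is approximate. The Wilson intervals given here leave out this rounding error. The gene with most reads took 3.43% of the reads on XL, 1.96% on chr2, 3.18% on chr3 and 13.6% on chr4. XR as a whole held 24.3% of the implied reads of the library (95% Wilson interval 24.3 to 24.4), more than its 19.4% of the genes, but without FBgn0074469 it held 18.9% of the remaining reads, which is less. The 31 very high genes together held 49.7% of the XR reads, and the 10 genes with most reads held 41.4%. The mean level of XR genes, 77.0, rests on these few genes. It lay above those of chr4 (68.9), chr2 (63.6) and XL (50.9) and below that of chr3 (136.1). The XR median, in contrast, lay below that of each autosome. Means elsewhere can rest on few genes too, as the highest gene of chr3 stood at 123309.

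Several further very high XR genes lay in pairs. At the start of chrXR_group6 the genes at chrXR_group6:117460-117869 and chrXR_group6:118281-118637, 411 bp apart, had FPKM of 7726 and 8228. They opened the longest XR run of genes at FPKM 100 or more, which held 4 genes. The run went on with a locus of 27135 bp at 783.3 and, inside that locus, a gene of 792 bp at 1856. Whether reads were assigned by strand is not stated, and without strand the reads of these overlapping loci cannot be told apart. At chrXR_group6:5854609-5855044 a gene reached 9669, and its neighbour 341 bp further reached 3441. On chrXR_group8 the highest gene, at chrXR_group8:900638-901078, stood at 7468 between neighbours at 20.9 and 218.3, and the next, at chrXR_group8:4899862-4900481, at 4756 between 6.97 and 24.6. On chrXR_group3a the highest gene, at chrXR_group3a:1429467-1430135, stood at 5236, and the genes at 1562 and 1014 lay within a short distance beyond it. The bounds of each very high gene of these pairs and groups lay within 2.31% of its FPKM.

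One value among the 10 highest rested on few reads and a very short locus. The gene at chrXR_group6:7814652-7814713 was listed at 7316 on a locus of only 62 bp, from 95 implied reads, with bounds of 5815 and 8818 that lay 20.5% away. It ended 86 bp before a gene at 1537 with 20038 implied reads, and 2 of the short loci before it, of 82 and 79 bp, were listed at 106.5 and 121.7 from 3 implied reads each. A level on so short a locus depends on the transcript length used to scale it, which is not listed. Other very high genes depend on this length too. The gene at chrXR_group6:4030880-4031377, of 498 bp, was listed at 4475 from 2649 implied reads. The gene at chrXR_group6:6919720-6920913, of 1194 bp, was listed lower, at 4172, from 77573 implied reads. How the order by FPKM would change with other lengths was not tested.

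Along the scaffold groups, levels changed over short stretches with no single gradient. In consecutive windows of 25 genes, 116 on XR, the median FPKM of a window ran from 0.12 to 34.4, with a median of 8.45 over windows. In 7 of the 116 windows the median was 20 or more, against 17 of 146 on chr2, 23 of 117 on chr3, 13 of 116 on chr4 and 3 of 104 on XL. Windows with a median under 2 numbered 14 on XR, 12 on XL, 11 on chr2, 9 on chr3 and 7 on chr4. Windows with a median under 1 numbered 3 on XR, 5 on XL, 8 on chr2, 8 on chr3 and 1 on chr4. XR thus had fewer windows of high level than each autosome and more with a median under 2, but not more of the lowest ones than chr2 or chr3. When each group was cut by gene order into 5 parts, the median on chrXR_group6 stayed between 7.02 and 11.1 and on chrXR_group8 between 3.51 and 11.6. On chrXR_group3a it went from 15.9 in the first part to 2.97 and 3.75 in the middle parts and to 29.0 in the last. The last part held the 4 very high genes of that group, and 91.7% of its genes were detected. On chrXR_group6 the first 3 parts held 4, 6 and 8 very high genes, the next held 0 and the last held 1. The part with 0 very high genes also held the most silent genes of the group, 41 of 136.

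**Figure D4:**
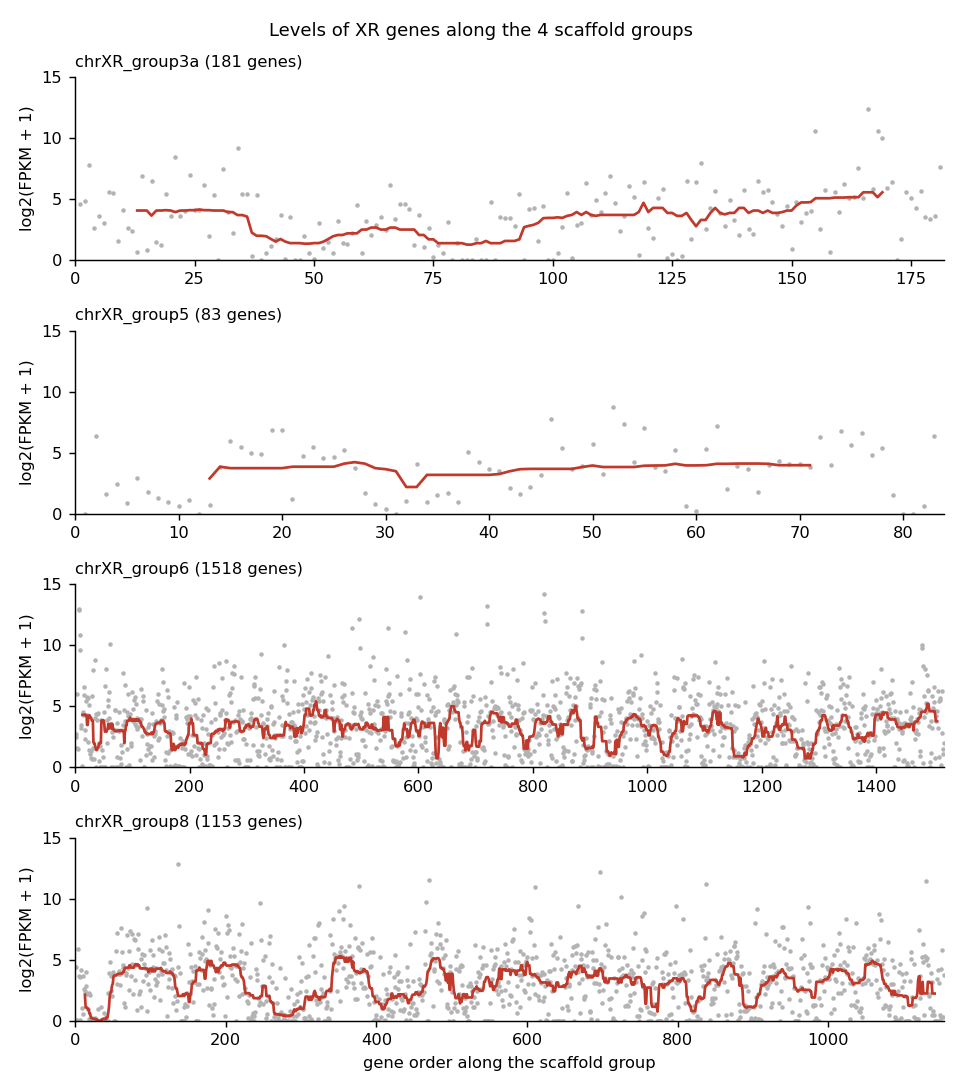
Level of each XR gene (grey points, y axis, log2 of FPKM + 1) by its order along the scaffold group (x axis), with the running median over 25 genes as a red line, in 1 panel per group. The line dips to 0 near the start of chrXR_group8 and climbs at the end of chrXR_group3a, where the highest window median, 45.7, is reached.

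The lowest stretch of XR lay near the start of chrXR_group8. Of 25 consecutive genes between chrXR_group8:252236-374108, 2 were detected, 14 were at FPKM 0 and 8 had 1 implied read each, and together they had 43 implied reads. The detected genes stood at 3.42 and 1.23. Their loci had a median length of 483 bp, close to that of silent XR genes, but only 1 was under 300 bp. The stretch holds the longest XR run of genes under FPKM 1, 13 genes at chrXR_group8:306367-329272, and a further run of 9 genes at chrXR_group8:331670-374108. Comparable windows were found elsewhere, with as few as 1 of 25 genes detected on chr2 and 0 of 25 on chr3, whereas the lowest was 8 on XL and 10 on chr4. At the other end, the longest XR run of detected genes held 55 genes at chrXR_group8:2275768-2511946, with a median of 27.8 and a range from 1.56 to 2138. The longest such runs were 49 genes on XL, 68 on chr2, 72 on chr3 and 40 on chr4. The window with the highest median, 45.7, lay at chrXR_group3a:1343890-1460284, where 23 of 25 genes were detected.

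The levels of neighbouring XR genes were weakly correlated, and over the arm as a whole the correlation fell with the number of genes between them. Over 2931 pairs of next neighbours on XR the Pearson correlation of log2(FPKM + 1) was 0.32 and Spearman's rank correlation 0.33. The correlation was 0.25 for genes 2 steps apart, 0.15 at 3 steps, 0.08 at 5 steps and 0.01 at 10 steps. For next neighbours it was 0.28 on XL, 0.24 on chr2, 0.27 on chr3 and 0.23 on chr4, so XR had the highest value among the X arms and autosomes. These are descriptions over pairs that share a library and a scaffold, and whether the X arms and autosomes differ was not tested. Within XR the correlation of next neighbours was 0.33 on chrXR_group6, 0.32 on chrXR_group8, 0.44 on chrXR_group5 (82 pairs) and 0.21 on chrXR_group3a (180 pairs). The fall with distance did not hold on chrXR_group3a, where the correlation was 0.40 at 2 steps and 0.28 at 3 steps. Over next neighbours of all XR groups it was 0.38 for the 1030 pairs whose loci lay 0 to 1 kb apart. For the 1086 pairs 1 to 5 kb apart it was 0.30, and for the 717 pairs over 5 kb apart 0.17. Both genes were on the same side of FPKM 1 in 81.1% of the closest of these pairs and in 62.6% of the farthest. With 77.6% of XR genes detected, most unrelated pairs would be on the same side too, and no baseline for this was worked out. The size of the difference between both genes did not follow this order, since its median on the log2 scale was 1.96 for overlapping pairs, 1.51 at 0 to 1 kb, 1.82 at 1 to 5 kb and 1.73 over 5 kb. Over XR genes at FPKM 1 or more alone the correlation was lower, at 0.21. For XL and the autosomes it was not worked out over such genes, so the ranking of XR is shown over all genes only. Leaving out the 98 pairs with overlapping loci left the value over all genes at 0.32.

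Muller element D could be set beside the same element in species where it is an autosome, by its level relative to the other autosomes of the same library. In D. melanogaster the median of 3L was 8.64, or 1.16 times that of 2L, 2R and 3R together. It was 0.94 times in D. simulans, with a median of 9.58, and 0.89 times in D. yakuba, with a median of 5.16. The ratio of XR in D. pseudoobscura, 0.80, was lower than in each of these libraries. Over detected genes 3L stood at 1.09, 1.02 and 1.01 times the other autosomes in the same order of species, and XR at 0.86, so that D. simulans and D. yakuba moved from below to above 1 and XR did not. The other autosome arms of these species (2L, 2R and 3R) differed among themselves too, each lying at 0.85 to 1.14 times the others over all genes and at 0.88 to 1.17 times over detected genes. XR lay below these ranges in both cases, by a small margin over detected genes. The X of the other species (element A) lay lower still, at 0.61, 0.62 and 0.64 times the autosomes over all genes, against 0.72 for XL. The detected share of 3L was 76.5% in D. melanogaster, above the other autosome arms (74.0% to 75.9%), but 74.9% in D. simulans and 70.5% in D. yakuba, below them (75.9% to 77.0% and 71.4% to 74.3%). No genes were matched between species, each species has 1 library of its own depth and annotation, and the difference between species was not tested. For D. melanogaster and D. yakuba the sample title and the organism field are at odds, each naming the other of the pair, and species were taken from the titles.

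**Figure D5:**
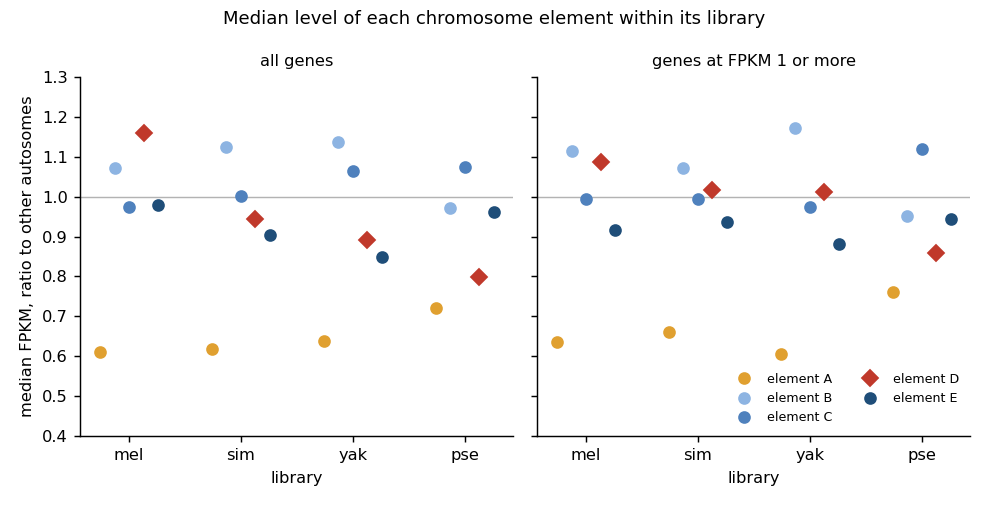
Median FPKM of each Muller element relative to the other autosomes of its library (y axis, ratio, line at 1) in the 4 species (x axis: mel, D. melanogaster; sim, D. simulans; yak, D. yakuba; pse, D. pseudoobscura), over all genes (left) and over genes at FPKM 1 or more (right). Element D (diamonds) lies at 1.16, 0.94 and 0.89 where it is an autosome and at 0.80 in D. pseudoobscura, where it is XR, and element A, the X of the other species and XL of D. pseudoobscura, is lowest in each library.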

How the data were processed

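RNA-seq of whole white prepupae was analysed in 4 samples, 1 per species. The authors used TopHat for alignment of the trimmed reads, which were not paired, and Cufflinks to estimate FPKM, per the study's methods. Bowtie, SAMtools and build dm3 are also listed in the submitters' processing notes. Versions, the build for D. pseudoobscura and the strand of reads: not given in the sources used here. Values deposited by the authors are FPKM per gene with lower and upper bounds and a status, which was OK for all 2935 XR rows. Starts in the files are counted from 0, as 1960 of 2860 genes of D. melanogaster arm 2L begin 1 base before their annotated start, so 1 was added. Implied reads were solved from the upper bound, taken as the FPKM plus 2 times the FPKM over the square root of the reads. Thresholds were FPKM 1 (detected) and 1000 (very high). A pseudocount of 1 was used on the log2 scale. No count test was run on FPKM, and 1 library allows no other. The calculations were tested on simulated data. Named genes were the 10 highest of XR, the gene with most reads, the highest of each scaffold group, the neighbours of the highest gene and members of the longest runs at 0, under 0.1 or at 100 and more; others were chosen after their values were seen. The arm and these choices were made with earlier results of these data known. No genome sequence of this species was used. Calculations used pandas 2.3.3, numpy 2.4.6 and scipy 1.17.1 in Python 3.11.15, and plots matplotlib 3.10.9.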

Additional observations from a re-analysis of the deposited data

How the results depend on the processing

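Of 43 recalculations under other settings, 32 left the value about where it was (a count by less than 1.5 times), 9 moved it and 2 changed its direction. The share of XR genes detected was 88.4% at FPKM 0.1 or more and 59.1% at 5 or more, and 83.6% among loci of 1000 bp or longer. The last was chosen after seeing the data, and so was the silent count among loci of 1000 bp or longer. The same holds for the settings without the gene with most reads, with loci of 300 bp or longer, with more than 3 implied reads and without the lowest window. The ratio of the XR median to that of the autosomes stayed between 0.76 and 0.86 under all 14 settings tried, below 1 in each. Among loci of 1000 bp or longer 61 XR genes were silent and 11 very high, and 49 were at FPKM 500 or more and 20 at 2000 or more. The neighbour correlation was 0.21 over genes at FPKM 1 or more. The XR share of implied reads was 18.9% without the gene with most reads, with the top genes of XL and the autosomes kept. Over genes at FPKM 1 or more the ratio of 3L to the other autosomes was 1.02 in D. simulans and 1.01 in D. yakuba, above 1 where it had been below. Restricting to status OK removed no XR gene and so tests nothing for the silent count or the detected share, though both settings are among the 32. No paired analysis was possible because each species has a single library. With 1 library, variation between animals is not measured. The bounds of detected XR genes lay a median of 11.7% from the value, and 70.7% for those with loci under 300 bp.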

Other observations

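The shortest loci of XR stood apart from the rest of the arm. Of 210 XR genes with loci under 300 bp, 107 (51.0%) were at FPKM 0, so that their median was 0, and 45.2% were detected. On XL 48.0% of 225 such genes and on the autosomes 54.4% of 754 were at FPKM 0. At FPKM 1000 or more stood 2 of these genes on XR, 7 on XL and 23 on the autosomes. The bounds of detected XR genes in this class lay a median of 70.7% of the FPKM above the value, against 47.1% on XL and 39.2% on the autosomes.

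The XR groups were similarly packed. The number of listed genes per megabase was 126.0 on chrXR_group8, 123.6 on chrXR_group3a, 115.2 on chrXR_group6 and 114.1 on chrXR_group5, and the median gap between next loci ran from 1.28 to 1.62 kb. Listed loci covered 37.9% of the span of chrXR_group6 and 47.3% of that of chrXR_group3a, counted with overlaps. The order of the groups by density was not that of their median levels.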
